A study of Mus musculus with 12 samples.

Results

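The transcripts followed here, of the neutrophil attraction and alarm system, were measured through bulk tumors: the chemokines Cxcl1 and Cxcl3, the chemokine receptors Cxcr1 and Cxcr2, and S100a8 and S100a9, which encode the subunits of calprotectin. They were taken by symbol, and all 6 of the 6 listed symbols were found among the 561 genes of the NanoString Mouse Immunology Panel, a hybridization assay that counts bar-coded probes without amplification. Each of the 12 samples was RNA from 1 tumor model, 1 genotype and 1 treatment, pooled from 4 mice. Tumors grew under the skin of C57BL6 mice labelled as 6 to 8 weeks old. The models were MC38, a colorectal adenocarcinoma line, and Pan02 and KPC, both pancreatic ductal adenocarcinoma lines. The 4 groups were Sirpα-/- mice whose tumors received 8 Gy of X-ray irradiation (Sirpα-/- IR), wild type mice with the same irradiation (WT IR), Sirpα-/- mice with no irradiation (Sirpα-/- no IR) and wild type mice with no irradiation (WT no IR), with 3 samples each, 1 per tumor model. Sirpα-/- mice lack SIRPα, the inhibitory CD47 receptor of macrophages and other myeloid cells, in all host cells, whereas the engrafted cancer cells came from established lines. Irradiated tumors exceeded 200 mm3 and were resected 12 h and 18 h later, with 2 mice per time point, and both times were combined in a pool. The transcript of the targeted gene was not analysed here.

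Neutrophils are drawn into inflamed tissue by CXC chemokines that carry a glutamate-leucine-arginine (ELR) motif, among them CXCL1 and CXCL3, which act on the receptor CXCR2. These chemokines are made by epithelial, endothelial, stromal, myeloid and many cancer cells when NF-κB is activated, whereas the receptors are carried mainly by neutrophils. S100A8 and S100A9 are calcium-binding proteins that pair as calprotectin, fill the cytosol of neutrophils and are also made by monocytes, and once released can signal through TLR4.

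Values are normalized counts, in which the background had been deducted and each sample scaled by its spiked-in positive controls. Net counts of all genes, recovered from the steps between values, were 12292 and 21576 in the non-irradiated Sirpα-/- and WT KPC samples and 79210 to 403396 in the other 10. In these 2 shallow samples 1 count was worth 6.48 normalized counts in the Sirpα-/- sample and 3.79 in the WT sample. The lowest value of a sample was shared by 13 to 17 genes in the 3 Sirpα-/- IR samples and by 56 to 267 genes in the other 9, and such a gene is written below as "at the lowest value". Intervals come from net counts and cover counting error only. In bulk RNA, fewer cells of a type and less RNA per cell cannot be told apart.

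In every tumor model, each of the 6 transcripts had its highest value in the Sirpα-/- IR sample, in 18 of 18 gene and model combinations. Not all of these exceeded counting error, since Cxcl1 in KPC was 17.8 against 16.6 in WT IR. Likewise Cxcl3 in Pan02 was 137 against 124 in WT IR. Of the 461 panel genes that reached 50 normalized counts in at least 1 sample, 30.8% were highest in Sirpα-/- IR in all 3 models. Taken alone, MC38 had 57.9% of these genes highest in Sirpα-/- IR, Pan02 had 52.3% and KPC had 44.3%. The models otherwise differed, in that Cxcl1 was highest in MC38, whereas Cxcl3, Cxcr2, S100a8 and S100a9 were highest in Pan02.

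**Figure D1:**
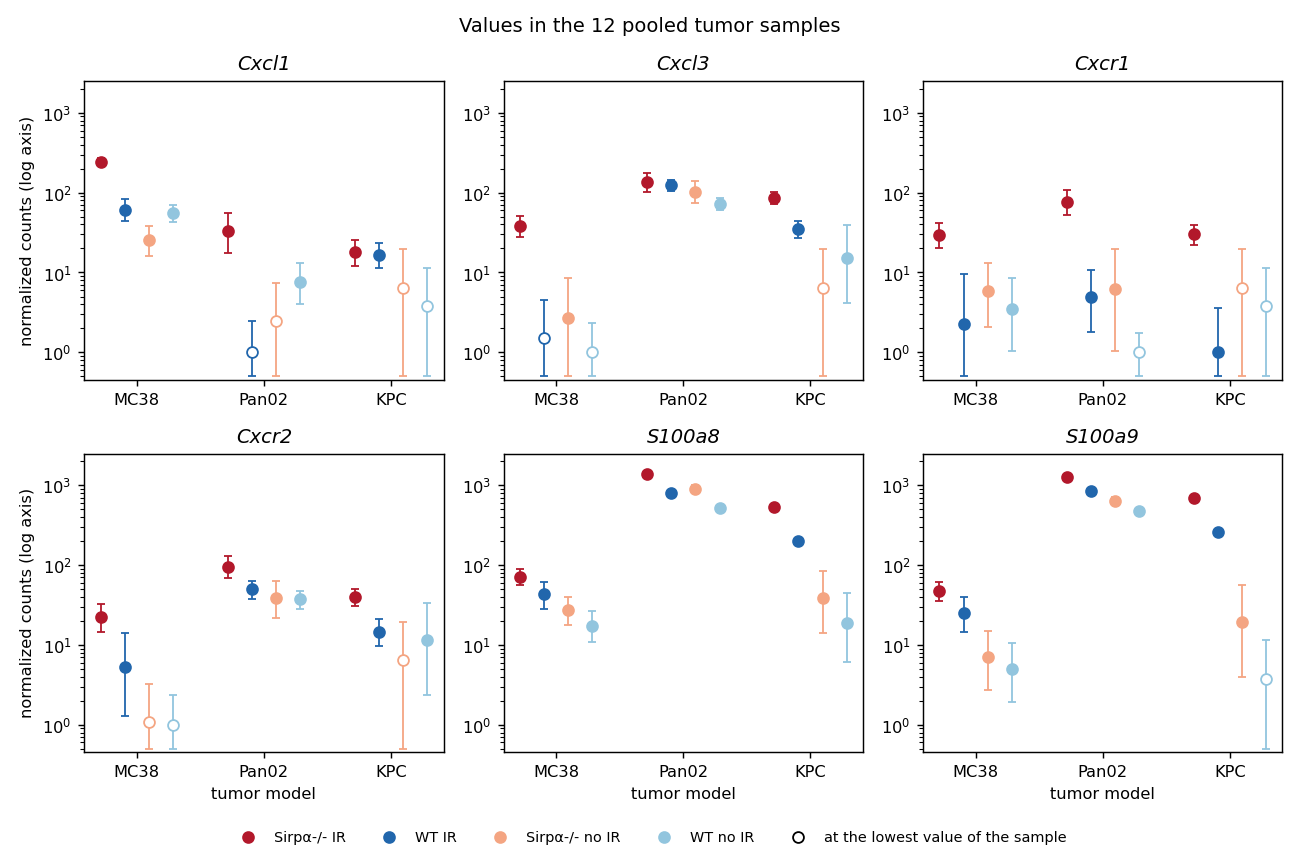
Normalized counts (log axis) of the 6 genes in the 12 pooled samples, by tumor model, with 1 point per sample and its 95% counting interval cut at 0.5, and open points at the lowest value of the sample. The Sirpα-/- IR point is the highest of its model in 18 of 18 cases, in some of them within counting error, from 17.8 for Cxcl1 in KPC to 1386 for S100a8 in Pan02.

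Cxcl1, known as KC in the mouse, was mainly an MC38 transcript. In MC38 it stood at 241 in the Sirpα-/- IR sample and 60.9 in the WT IR sample, with 25.3 in Sirpα-/- no IR and 55.5 in WT no IR. In Pan02 it stood at 32.6 in Sirpα-/- IR and at the lowest value, 1.0, in WT IR, with 2.48 (the lowest value) in Sirpα-/- no IR and 7.67 in WT no IR. In KPC the values were 17.8 in Sirpα-/- IR and 16.6 in WT IR, and both non-irradiated samples were at their lowest value (6.48 in Sirpα-/- and 3.79 in WT). Thus the irradiated Sirpα-/- tumor exceeded its irradiated WT counterpart by more than counting error in MC38 and Pan02 but not in KPC. The log2 ratio of (value + 10), Sirpα-/- IR over WT IR, was 1.82 ± 0.42 in MC38, 1.95 ± 0.69 in Pan02 and 0.06 ± 0.46 in KPC (95% counting interval). The Pan02 value was 13.4-fold above the floor of 3 counts in WT IR, which leaves out the counting error of its own 13.5 net counts. Of the 11 neighbouring pairs in the order of the 12 values, 10 had overlapping counting intervals, and the gap lay between the MC38 Sirpα-/- IR and MC38 WT IR samples. Without irradiation the MC38 difference ran the other way, with a log2 ratio of -0.89 ± 0.51 for Sirpα-/- over WT.

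Cxcl3, a close relative of Cxcl1 that lies in the same chemokine cluster on chromosome 5, was distributed otherwise. In Pan02 it was measured in all 4 samples, at 137 in Sirpα-/- IR and 124 in WT IR, and at 103 in Sirpα-/- no IR and 72.0 in WT no IR. In KPC it stood at 86.1 in Sirpα-/- IR and 34.8 in WT IR, against 6.48 (the lowest value) in Sirpα-/- no IR and 15.2 in WT no IR. In MC38 it stood at 38.3 in Sirpα-/- IR and at the lowest value in WT IR (1.5), with 2.69 in Sirpα-/- no IR and 1.0 (the lowest value) in WT no IR. The MC38 Sirpα-/- IR sample was therefore the only one of its model with more than a few counts, 8.48-fold above the floor of 3 counts in WT IR. The log2 ratio, Sirpα-/- IR over WT IR, was 2.07 ± 0.73 in MC38, 0.12 ± 0.41 in Pan02 and 1.10 ± 0.34 in KPC. By counting error alone, the irradiated genotypes thus differed in MC38 and Pan02 for Cxcl1 but in MC38 and KPC for Cxcl3. Each such difference rests on 1 pool per condition. In Pan02, 151 of 155 genes that were low in WT IR were higher in Sirpα-/- IR, and 104 of them lay above Cxcl1 there. In MC38 125 of 149 such genes were higher, and 9 of them lay above Cxcl3. The part of such a shift of weak genes, described below, in these differences was not tested. The study names both chemokines for these samples, so their direction here is not independent evidence.

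The promoters of both chemokines are shown because the pair differed across tumor models while carrying the same short motif. The sequences are the RefSeq windows of build GRCm38.p6 from 250 bases before to 50 bases after the annotated start, 5′ to 3′, in which capitals mark the κB-type motif GGAATTTCC and the TATA motif TATAAA on either strand. 
Cxcl1 (chr5:90890995-90891294, plus strand): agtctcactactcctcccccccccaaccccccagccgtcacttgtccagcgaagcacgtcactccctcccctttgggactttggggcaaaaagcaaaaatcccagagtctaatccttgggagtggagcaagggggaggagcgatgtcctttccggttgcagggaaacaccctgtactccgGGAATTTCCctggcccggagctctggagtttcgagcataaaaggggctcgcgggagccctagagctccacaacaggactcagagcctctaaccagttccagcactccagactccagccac
Cxcl3 (chr5:90785851-90786150, plus strand): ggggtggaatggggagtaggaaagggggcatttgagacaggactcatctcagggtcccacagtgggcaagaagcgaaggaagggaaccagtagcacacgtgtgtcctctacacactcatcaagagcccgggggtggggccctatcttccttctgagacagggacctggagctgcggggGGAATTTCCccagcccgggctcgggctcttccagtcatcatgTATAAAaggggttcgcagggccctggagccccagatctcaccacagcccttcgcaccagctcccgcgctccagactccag
GGAATTTCC begins 70 bases before the start in Cxcl1 and 72 bases before it in Cxcl3. The 9 letters, searched on both strands, were found in 104 of 32851 promoter windows of the same length (0.317%). Among panel genes, 12 of the 420 with a window held them, but with windows for 420 of 561 genes the panel share is void as a comparison. TATAAA begins 30 bases before the start of Cxcl3 and is not in the Cxcl1 window, and 13.6% of the windows hold it. A match is a description of letters, not of binding.

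Of 4 other ELR chemokines listed, 2 were measured. Cxcl15, a mouse chemokine also called lungkine that lies between Cxcl3 and Cxcl1 in GRCm38.p6, was near the bottom of the range in MC38, at 21.4 in Sirpα-/- IR and at the lowest value in the other 3 samples. It reached 289 in Sirpα-/- IR, 498 in WT IR, 309 in Sirpα-/- no IR and 296 in WT no IR in Pan02, and in KPC 124, 209.6, 123 and 83.4 in the same order of groups. Cxcl15 was thus low in the model where Cxcl1 was high, and it did not follow the genotype after irradiation (log2 difference -0.01, limma adjusted p = 0.996). Ppbp, the precursor of platelet chemokines, stood at 13.4, 88.2 and 32 in the Sirpα-/- IR samples of MC38, Pan02 and KPC and at 5.27, 5.70 and 5.04 in the WT IR samples. Its mean log2 difference was 1.58 (limma adjusted p = 0.0216), but Ppbp had reached the filter of 50 normalized counts only in the Pan02 Sirpα-/- IR sample, through the group in which it was high.

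Cxcr1 separated the irradiated Sirpα-/- tumors from all others. In humans CXCR1 is a receptor for CXCL8, a chemokine that mice lack. In MC38 it stood at 29.4 in Sirpα-/- IR and 2.26 in WT IR, with 5.92 in Sirpα-/- no IR and 3.49 in WT no IR. In Pan02 it stood at 76.1 in Sirpα-/- IR and 4.88 in WT IR, with 6.20 in Sirpα-/- no IR and 1.0 (the lowest value) in WT no IR. In KPC it stood at 30.2 in Sirpα-/- IR and 1.01 in WT IR, with the lowest value in both non-irradiated samples (6.48 in Sirpα-/- and 3.79 in WT). The 3 Sirpα-/- IR samples, at 29.4 to 76.1, did not overlap the other 9, at 1.0 to 6.48. How many panel genes parted these samples in the same way was not counted. The log2 ratio of Sirpα-/- IR over WT IR was 1.68 ± 0.56 in MC38, 2.53 ± 0.58 in Pan02 and 1.87 ± 0.35 in KPC, where the WT IR values rest on 1.5, 6 and 2 net counts.

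Cxcr2, the receptor through which CXCL1 and CXCL3 act on neutrophils, followed the tumor model as well as the group. In Pan02 it stood at 95.5 in Sirpα-/- IR and 49.6 in WT IR, and at 38.5 in Sirpα-/- no IR and 37.2 in WT no IR. In KPC it stood at 39.4 in Sirpα-/- IR and 14.6 in WT IR, against 6.48 (the lowest value) in Sirpα-/- no IR and 11.4 in WT no IR. In MC38 it stood at 22.3 in Sirpα-/- IR and 5.27 in WT IR, against the lowest value in Sirpα-/- no IR (1.08) and WT no IR (1.0). The Sirpα-/- IR sample was the higher one in every model, although the lowest Sirpα-/- IR value, in MC38, was below all 4 Pan02 values. The log2 ratio of Sirpα-/- IR over WT IR was 1.08 ± 0.65 in MC38, 0.82 ± 0.51 in Pan02 and 1.0 ± 0.42 in KPC. On this scale, with its added constant, the spread among models was smaller than for any other of the 6 genes. This did not hold for the values themselves, whose folds for Cxcr2 were 4.22, 1.92 and 2.70 in the same order. The folds lay closer together for S100a8 (1.66, 1.73 and 2.65) and S100a9 (1.90, 1.52 and 2.69).

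The Cxcr1 values stood within a shift of weak genes in general. Of the 149 panel genes at 10 normalized counts or less in the MC38 WT IR sample, 125 were higher in the MC38 Sirpα-/- IR sample, where their median was 16.0 (quartiles 8.90 and 24.0). The same held for 151 of 155 genes in Pan02 (median 47.1, quartiles 26.6 and 76.1) and for 158 of 177 genes in KPC (median 16.6, quartiles 9.84 and 24.0). Cxcr1 lay above the median each time, with 20 of these genes above it in MC38, 37 in Pan02 and 22 in KPC. Cxcl3 had 9 and Cxcr2 had 44 of the 149 genes above it in MC38, while Cxcl1 in Pan02 lay below the median with 104 of the 155 above it. The genes were picked as low in WT IR, which by itself favours higher values in Sirpα-/- IR. The counts therefore do not give the size of a shift. Its part in the differences of Cxcr1, Cxcl3, Cxcr2 and Cxcl1 was not tested.

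**Figure D2:**
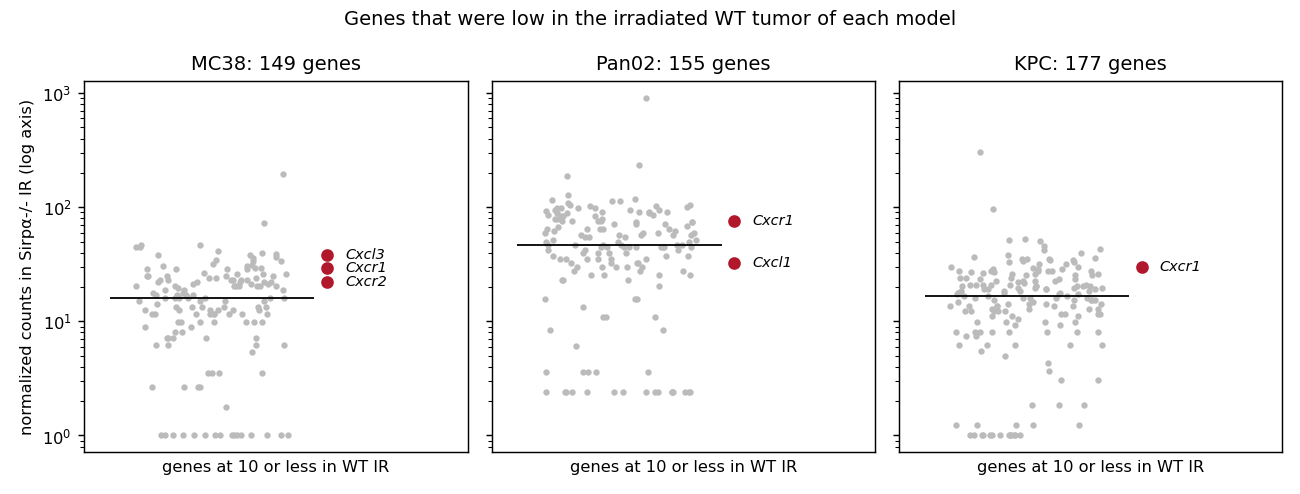
Normalized counts in the Sirpα-/- IR sample (log axis) of all genes that were at 10 normalized counts or less in the WT IR sample of the same tumor model (grey points spread sideways, line at the median), with the members of that set repeated in red and named. Cxcr1 lies above the medians of 16.0, 47.1 and 16.6, and Cxcl1 in Pan02 lies below.

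S100a8 and S100a9 were high in Pan02, low in MC38 and highly variable in KPC. S100a8 stood in Pan02 at 1386 in Sirpα-/- IR and 801 in WT IR, and at 907 in Sirpα-/- no IR and 526 in WT no IR. In KPC it stood at 529 in Sirpα-/- IR and 199.5 in WT IR, against 38.9 in Sirpα-/- no IR and 19 in WT no IR. In MC38 it stood at 71.2 in Sirpα-/- IR and 42.9 in WT IR, and at 27.5 in Sirpα-/- no IR and 17.5 in WT no IR. Each model had the same order for S100a8 except that Pan02 Sirpα-/- no IR exceeded Pan02 WT IR. S100a9 stood in Pan02 at 1272 in Sirpα-/- IR and 837 in WT IR, and at 634 in Sirpα-/- no IR and 472 in WT no IR. In KPC it stood at 695 in Sirpα-/- IR and 258 in WT IR, against 19.5 in Sirpα-/- no IR and 3.79 (the lowest value) in WT no IR. In MC38 it stood at 47.2 in Sirpα-/- IR and 24.8 in WT IR, and at 7.0 in Sirpα-/- no IR and 5.04 in WT no IR. S100a9 thus had the order Sirpα-/- IR, WT IR, Sirpα-/- no IR, WT no IR in all 3 models. After irradiation the log2 ratio of Sirpα-/- over WT was 0.62 ± 0.51 for S100a8 and 0.72 ± 0.59 for S100a9 in MC38, 0.78 ± 0.15 and 0.60 ± 0.15 in Pan02, and 1.36 ± 0.17 and 1.39 ± 0.15 in KPC, with S100a8 first in each pair.

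The irradiated and non-irradiated KPC tumors lay far apart in calprotectin transcripts in both genotypes. In Sirpα-/- KPC tumors the log2 ratio of IR over no IR was 3.46 ± 0.92 for S100a8 and 4.58 ± 1.08 for S100a9, resting on 6 and 3 net counts in the non-irradiated sample. In WT KPC tumors it was 2.85 ± 0.84 for S100a8, on 5 net counts without irradiation. S100a9 after irradiation was 22.7-fold above the floor of 3 counts in the non-irradiated sample. In MC38 and Pan02 the same ratios lay between 0.60 and 1.75. These KPC ratios rest on the 2 shallow samples, whose depth cannot be told apart from their treatment.

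The ratio of S100a8 to S100a9 differed among samples, although the level of the ratio depends on 2 different probes and has no meaning of its own. In MC38 it was 1.51 in Sirpα-/- IR (95% counting interval 1.07 to 2.14) and 1.73 in WT IR (0.942 to 3.17), against 3.92 in Sirpα-/- no IR (1.66 to 9.28) and 3.46 in WT no IR (1.45 to 8.29). In Pan02 it was 1.09 in Sirpα-/- IR (0.968 to 1.23) and 0.956 in WT IR (0.876 to 1.04), against 1.43 in Sirpα-/- no IR (1.22 to 1.68) and 1.11 in WT no IR (1.01 to 1.23). In KPC it was 0.762 in Sirpα-/- IR (0.697 to 0.832) and 0.772 in WT IR (0.677 to 0.880), against 2.0 in Sirpα-/- no IR (0.50 to 8.0) and at least 1.67 in WT no IR. In the 5 pairs of 1 model and 1 genotype that had both ratios, the irradiated sample had the lower one. The intervals of the irradiated and the non-irradiated sample overlapped in all 5. Overlap of separate intervals does not show that the ratios were alike, and their difference was not tested. The bound in WT KPC rests on 5 net counts of S100a8, whose counting error it leaves out, and was not set against an interval. The irradiated sample of each pair also had the higher values of both genes.

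**Figure D3:**
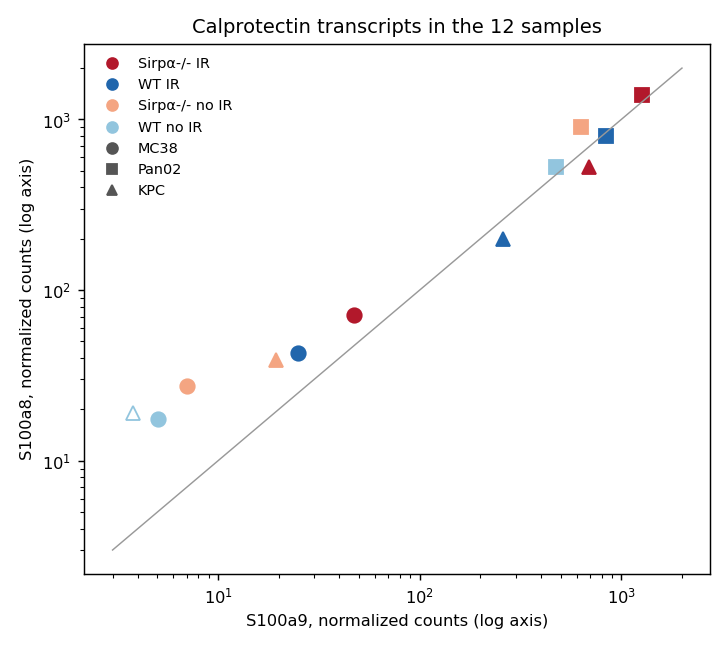
S100a8 against S100a9 in the 12 samples, both in normalized counts on log axes, with colour for the group, marker shape for the tumor model, an open marker where S100a9 was at the lowest value, and a line of equal values. The Sirpα-/- IR Pan02 point lies highest (S100a8 1386, S100a9 1272), WT KPC without irradiation had 19 and 3.79, and the irradiated KPC samples lie under the line.

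The promoters of S100a8 and S100a9, neighbouring genes on chromosome 3 that are read from opposite strands in GRCm38.p6, are shown because these transcripts had the highest Pearson's r of any pair of the 6. Capitals mark TATAAA, and neither window holds GGAATTTCC on either strand.
S100a8 (chr3:90668821-90669120, plus strand): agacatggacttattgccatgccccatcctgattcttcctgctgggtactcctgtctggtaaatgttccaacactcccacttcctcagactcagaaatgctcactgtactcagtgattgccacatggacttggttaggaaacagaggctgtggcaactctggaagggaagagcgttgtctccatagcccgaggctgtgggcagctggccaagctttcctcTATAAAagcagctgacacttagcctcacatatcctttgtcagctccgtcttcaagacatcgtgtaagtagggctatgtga
S100a9 (chr3:90695672-90695971, minus strand): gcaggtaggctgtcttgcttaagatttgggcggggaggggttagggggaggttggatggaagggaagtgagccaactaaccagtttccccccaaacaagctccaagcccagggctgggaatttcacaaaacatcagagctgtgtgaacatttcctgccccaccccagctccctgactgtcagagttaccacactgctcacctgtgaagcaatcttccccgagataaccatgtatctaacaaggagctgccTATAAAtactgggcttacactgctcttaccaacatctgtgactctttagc
TATAAA begins 30 bases before the annotated start of S100a8 and at the annotated start itself in S100a9. The windows of Cxcr1 and Cxcr2, neighbours on chromosome 1, hold neither motif.

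The question behind the genotype comparison was whether irradiation changed tumors differently in mice without SIRPα. After irradiation all 6 transcripts had positive mean log2 differences, Sirpα-/- over WT, and 2 of 6 passed the test across the panel (limma, Benjamini-Hochberg adjusted p under 0.05). Cxcr1 was higher by 2.03 ± 0.34 (SE; adjusted p = 0.0048) and Cxcr2 by 0.97 ± 0.28 (adjusted p = 0.0381), each in 3 of 3 tumor models. Over the panel 15.8% of 461 tested genes were higher by the same rule, and the median log2 difference was 0.16. Both called genes had reached the filter of 50 normalized counts only in the Pan02 Sirpα-/- IR sample, so their pass was tied to the group in which they were high. Both were also called when no filter was set. The call of Cxcr1 was kept without MC38 (adjusted p = 0.0492) and lost without KPC (0.0891) or when only the 2 irradiated groups were fitted (0.0817). Cxcr2 was not called without MC38 (adjusted p = 0.261), without KPC (0.233) or with edgeR on recovered counts (0.135). Neither was tested without Pan02, because no other sample reached the filter.

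The other 4 transcripts did not pass in limma after irradiation. The mean log2 difference was 1.28 ± 0.43 (SE) for Cxcl1 (adjusted p = 0.0695) and 1.10 ± 0.43 for Cxcl3 (adjusted p = 0.119), each positive in 3 of 3 tumor models. It was 0.92 ± 0.54 for S100a8 (adjusted p = 0.319) and 0.90 ± 0.72 for S100a9 (adjusted p = 0.503), also positive in 3 of 3. When the 2 shallow KPC samples were left out S100a8 passed (adjusted p = 0.0383) and Cxcr2 no longer did (adjusted p = 0.0595), so the count stayed at 2 with S100a8 in place of Cxcr2.

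Counted within single models, at least 2-fold higher values in Sirpα-/- IR than in WT IR on the scale of value + 10, with at least 50 in the higher sample, were found for Cxcl1 in MC38, Cxcr1 in Pan02, and Cxcl3, S100a8 and S100a9 in KPC. That was 1 of 2 transcripts that could be counted in MC38, 1 of 5 in Pan02 and 3 of 3 in KPC. Of all panel genes that could be counted, 8.67% passed in MC38, 32.6% in Pan02 and 8.33% in KPC. With 1 sample per condition these counts have no replicate check.

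**Figure D4:**
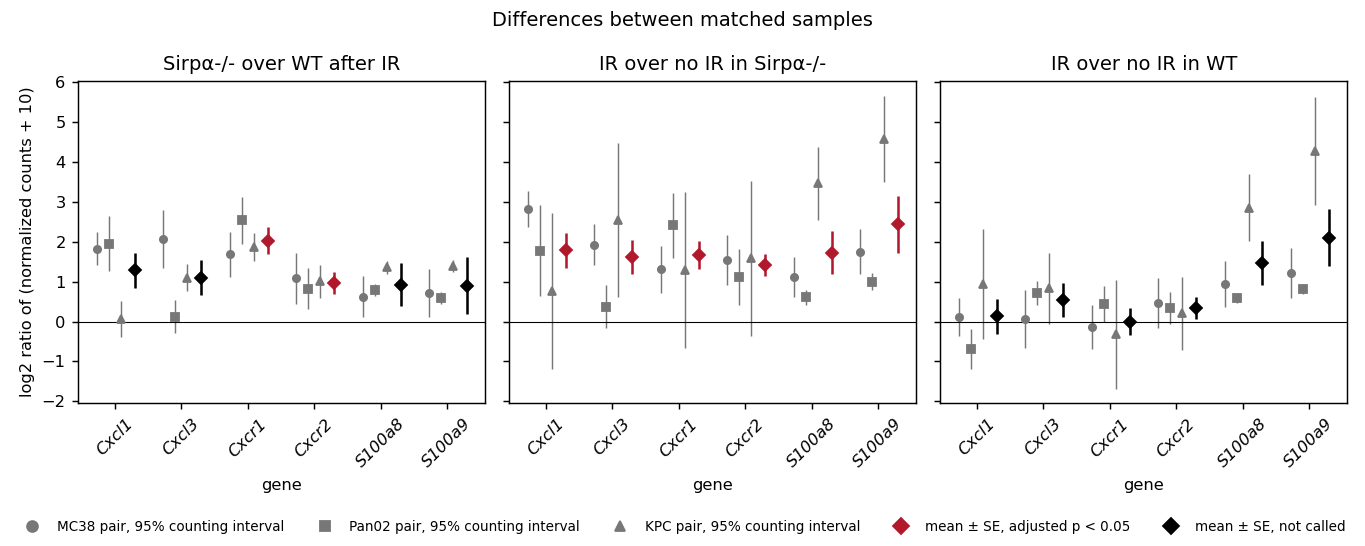
Log2 ratios of (normalized counts + 10) for the 6 genes in 3 comparisons: grey markers are the matched pairs of each tumor model with 95% counting intervals, and diamonds are the limma means ± SE over 3 models, red where the adjusted p was under 0.05. In the left panel Cxcr1 (2.03) and Cxcr2 (0.97) are red, in the middle panel all 6 are red, and in the right panel none is.

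In mice without irradiation the genotypes were not told apart. The log2 differences of Sirpα-/- over WT ran between -0.38 ± 0.43 (SE) for Cxcl1 and 0.66 ± 0.54 for S100a8, and 0 of 6 transcripts were called by limma, with adjusted p between 0.967 and 0.983. Over the panel 0.0% of 461 genes were called, with 12 at an unadjusted p under 0.05, and edgeR and the methods' t-test also called none. A lack of calls at 3 samples per group does not show that the values were alike.

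All 6 transcripts were called higher with irradiation in Sirpα-/- tumors. The mean log2 difference, IR over no IR, was 1.79 ± 0.43 (SE) for Cxcl1, 1.62 ± 0.43 for Cxcl3, 1.67 ± 0.34 for Cxcr1, 1.42 ± 0.28 for Cxcr2, 1.73 ± 0.54 for S100a8 and 2.44 ± 0.72 for S100a9. The limma adjusted p ran between 0.00785 for Cxcr2 and 0.0262 for S100a8, and each gene was higher in 3 of 3 models. Cxcr1 and Cxcr2 had reached the filter of 50 normalized counts only in the Pan02 Sirpα-/- IR sample. Their pass was therefore tied to the group in which they were high, although both were also called when no filter was set. The whole panel moved the same way in this comparison: 43.0% of tested genes were called higher and the median log2 difference over all of them was 0.91, against a median of 1.70 over the 6. The panel share depended on scaling, with 198 genes higher and 1 lower as deposited, 145 and 1 after scaling by reference genes (median 0.74), and 68 and 8 of 442 after median-of-ratios scaling (median 0.42), where 3 of the 6 were called. The calls rested on the set of models, since 6 of 6 became 0 without Pan02, where 4 of the 6 could be tested, 0 without KPC, and 3 without MC38, where 5 could be tested. Without the 2 shallow KPC samples 5 were called, Cxcl3 being the exception. The calprotectin means rested largely on KPC, since S100a8 was 0.97 without the shallow samples and 0.86 without KPC, and S100a9 was 1.49 and 1.37. Without Pan02 S100a9 was 3.17 and Cxcl3 was 2.24. In single models, at least 2-fold higher values were counted for Cxcl1 and S100a8 in MC38 (2 of 2), Cxcr1 and Cxcr2 in Pan02 (2 of 5), and Cxcl3, S100a8 and S100a9 in KPC (3 of 3). The panel shares were 35.0% in MC38, 40.8% in Pan02 and 42.3% in KPC.

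In WT tumors the same comparison called 0 of 6 transcripts and 0.0% of the panel in limma, with 76 genes at an unadjusted p under 0.05 and no calls by edgeR or the methods' t-test. The calprotectin transcripts had the highest means of the 6, with log2 differences of 2.10 ± 0.72 (SE) for S100a9 and 1.47 ± 0.54 for S100a8 (adjusted p = 0.276 for both), positive in 3 of 3 models. Without the 2 shallow KPC samples these were 0.89 for S100a9 and 0.66 for S100a8, and the WT no IR KPC sample held 1 net count of S100a9 and 5 of S100a8. Cxcl1 (0.13 ± 0.43) and Cxcr1 (-0.01 ± 0.34) lay near 0, and Cxcl3 (0.54 ± 0.43) and Cxcr2 (0.34 ± 0.28) near the panel median of 0.41. At least 2-fold higher values were counted for S100a8 and S100a9 in KPC (2 of 2), and for none of 1 transcript in MC38 and none of 3 in Pan02. The panel shares were 31.1% in MC38, 3.15% in Pan02 and 41.2% in KPC.

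The effect of irradiation was then compared between genotypes directly. The difference of the log2 effects, Sirpα-/- minus WT, was 1.66 ± 0.61 (SE) for Cxcl1, 1.08 ± 0.61 for Cxcl3, 1.68 ± 0.48 for Cxcr1 and 1.08 ± 0.40 for Cxcr2, but 0.26 ± 0.77 for S100a8 and 0.34 ± 1.02 for S100a9. None of the 6 passed in limma, with adjusted p of 0.170, 0.438, 0.113 and 0.170 for the chemokines and receptors in that order and 0.921 and 0.923 for S100a8 and S100a9. Over the panel 0.0% were called, with 74 genes at an unadjusted p under 0.05 and none called by edgeR. The differences for Cxcl1, Cxcr1 and Cxcr2 are therefore means that did not pass the test, and those for the calprotectin transcripts were smaller than their errors.

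The tumor models were compared next, with the 4 conditions of each model as its samples. MC38 had higher Cxcl1 than the mean of the pancreatic models, by 2.07 ± 0.32 on the log2 scale (SE; limma adjusted p = 0.00082), and 25.6% of the panel was called higher. MC38 had lower Cxcl3 (-1.97 ± 0.33, adjusted p = 0.00104), Cxcr2 (-1.34 ± 0.21, adjusted p = 0.00082), S100a8 (-2.77 ± 0.41, adjusted p = 0.000673) and S100a9 (-3.32 ± 0.54, adjusted p = 0.000935). These were 4 of 6 transcripts where 8.89% of the panel was called lower. Cxcr1 did not differ by the test (-0.14 ± 0.26, adjusted p = 0.699). The balance of the panel depended on scaling, with 118 genes higher and 41 lower as deposited, 21 and 85 after scaling by reference genes, and 48 and 71 after median-of-ratios scaling, and the panel median log2 difference moved with it (0.16 as deposited, -0.44 and -0.22). Without the 2 shallow KPC samples S100a8 was -3.35 and S100a9 was -4.13. The 5 calls and their directions held under both scalings, with Cxcl1 at 1.49 and 1.66 and S100a9 at -3.75 and -3.61. In values, MC38 tumors had Cxcl3 at 1.0 to 38.3 and Pan02 tumors at 72.0 to 137, without overlap, and the same was true of Cxcr2 (1.0 to 22.3 against 37.2 to 95.5), S100a8 (17.5 to 71.2 against 526 to 1386) and S100a9 (5.04 to 47.2 against 472 to 1272). KPC tumors overlapped MC38 tumors in each of these genes. How many panel genes lacked overlap between MC38 and Pan02 was not counted, so nothing particular to these genes is read from it.

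Between the pancreatic models, Pan02 was higher than KPC in Cxcl3 (1.67 ± 0.38, adjusted p = 0.00335), Cxcr2 (1.27 ± 0.24, adjusted p = 0.00219), S100a8 (2.94 ± 0.47, adjusted p = 0.00213) and S100a9 (3.02 ± 0.62, adjusted p = 0.00233), on the log2 scale with SE in limma. Without the 2 shallow KPC samples all 4 were still called, but the difference was 1.77 for S100a8 (adjusted p = 0.0261) and 1.41 for S100a9 (adjusted p = 0.0261). S100a9 was also 2.32 without the WT no IR samples and 3.75 without the Sirpα-/- IR samples. These 4 of 6 are no more than the panel, of which 67.0% was called higher, with a median log2 difference of 1.03. The reference genes moved too, with geometric means of 625 to 850 in the Pan02 samples and 335 to 456 in the KPC samples. After scaling by reference genes or by median of ratios no panel gene was called in either direction, although 122 and 96 genes had an unadjusted p under 0.05. S100a8 then had log2 differences of 2.13 and 1.91 (adjusted p = 0.118 and 0.198) and S100a9 of 2.32 and 2.12 (adjusted p = 0.118 and 0.198). Cxcl1 did not differ by the test (-0.18 ± 0.37, adjusted p = 0.709), nor did Cxcr1 (0.30 ± 0.29, adjusted p = 0.413), whose sign turned under both scalings (-0.09 and -0.21). Each model is 1 cell line, so these are contrasts of 3 lines.

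Over the 12 samples the 6 transcripts fell into a run of 4 and 2 that went their own way. Pearson's r of log2(value + 10) was 0.99 between S100a8 and S100a9, 0.97 between Cxcl3 and Cxcr2, and 0.91 to 0.94 for the other pairs of these 4. Spearman's rho was 0.97 between S100a8 and S100a9 and 0.99 between Cxcl3 and Cxcr2. Cxcl1 correlated negatively with these 4 (r between -0.34 and -0.23) and Cxcr1 weakly (r between 0.39 and 0.58). After the mean of each tumor model was subtracted, all pairs were positive, with r of 0.99 for S100a8 and S100a9, 0.90 for Cxcl3 and Cxcr2, 0.83 for Cxcl1 and Cxcr2 and 0.68 for Cxcl1 and Cxcl3. The samples share tumor models, groups and depth, so these are descriptions of 12 points. Without the 2 shallow KPC samples r was 0.99 for S100a8 and S100a9 and 0.97 for Cxcl3 and Cxcr2.

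**Figure D5:**
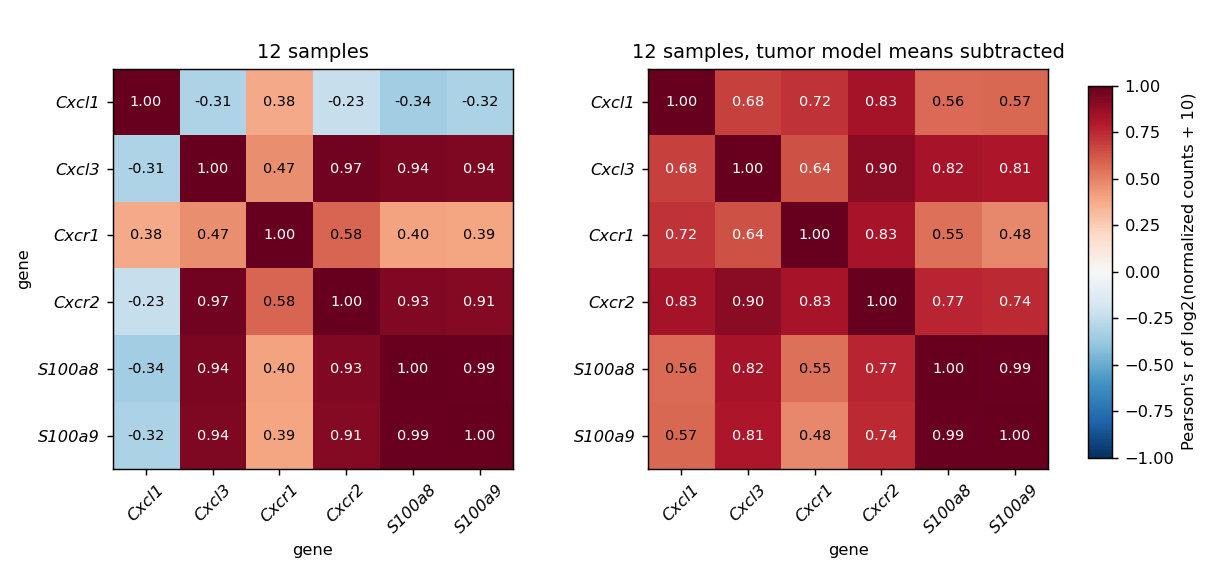
Pearson's r of log2(normalized counts + 10) between the 6 genes (both axes) over the 12 samples, on the left as measured and on the right after subtraction of each tumor model's mean, with red for positive and blue for negative r. As measured, Cxcl1 has r of -0.34 to -0.23 with Cxcl3, Cxcr2, S100a8 and S100a9, and after subtraction 0.56 to 0.83.

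The panel genes most like each transcript differed in the same way. For Cxcl1 they were the interferon-induced chemokine Cxcl11 (r = 0.90), the monocyte chemokine Ccl2 (0.82) and the IL-15 receptor gene Il15ra (0.81), and after subtraction of model means Tlr9, Icam1 and Cd79b (0.89 each). Ccl2 stood at 4889 in Sirpα-/- IR, 4708 in WT IR, 1112 in Sirpα-/- no IR and 2108 in WT no IR in MC38, and at 83.1 to 1185 in the pancreatic models. For Cxcl3 they were Cxcr2 (0.97), S100a8 (0.94) and S100a9 (0.94), and after subtraction Icosl (0.96), Csf2rb (0.92) and Il1rl1 (0.91). For Cxcr2 they were Cxcl3 (0.97), the NK receptor gene Klra4 (0.95) and the IgE receptor gene Fcer1a (0.94), and after subtraction Csf2rb (0.97) and Ctla4 (0.94). Klra4 (0.97 and 0.96) and H2-DMb2 (0.97 and 0.96) stood next to S100a8 and S100a9 after their own partner. After subtraction these were Abcb1a (0.98 and 0.97), with Il1rl1 (0.94) for S100a8 and Itga4 (0.92) for S100a9.

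Cxcr1 had the closest company of weak genes. Il21, Ltb4r2 and Folr4 had r of 0.98 with it, and 0.99 each after subtraction of model means. Il21 stood at 21.4, 71.3 and 26.5 in the Sirpα-/- IR samples of MC38, Pan02 and KPC, and at 1.5, 2.44 and 1.51 in the WT IR samples. Ltb4r2, a leukotriene B4 receptor gene, stood at 28.5, 115 and 35.1 in Sirpα-/- IR and at 1.5, 1.0 and 1.0 in WT IR. Like Cxcr1 they were higher in each Sirpα-/- IR sample than in the WT IR sample of the same model, and they are among the genes at 10 or less in WT IR described above.

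Other neutrophil genes were few on the panel. Of 17 granule and surface genes listed, 6 were measured and 5 tested, and after irradiation 2 were higher in Sirpα-/- than in WT tumors, where 15.8% of the panel was. These were Ltf, the granule protein lactoferrin (1.90 ± 0.40, SE; limma adjusted p = 0.00805), and Trem1, an activating receptor of neutrophils and monocytes (1.36 ± 0.28, adjusted p = 0.00787). Both had reached the filter only in the Pan02 Sirpα-/- IR sample. Csf3r, the G-CSF receptor gene listed here as a neutrophil marker, did not pass (0.27 ± 0.39, adjusted p = 0.755), nor did the granule protease gene Ctsg (1.12 ± 0.57, adjusted p = 0.248) or the decoy receptor gene Il1r2 (0.83 ± 0.52, adjusted p = 0.360). Csf3r stood at 54.3 in Sirpα-/- IR and 27.8 in WT IR in MC38, 139 and 141 in Pan02, and 44.3 and 41.8 in KPC, so that the irradiated genotypes lay close in Pan02 and KPC. Across the 12 samples Csf3r had r of 0.88 with Cxcl3, 0.90 with Cxcr2 and 0.87 with both S100a8 and S100a9, but 0.40 with Cxcr1 and -0.12 with Cxcl1. Camp, which encodes a neutrophil granule peptide, did not exceed 6.48 in any sample. The sum of the 4 measured neutrophil markers (Csf3r, Camp, Ltf and Trem1) was 108, 308 and 84.1 in Sirpα-/- IR and 37.6, 163 and 48.9 in WT IR, for MC38, Pan02 and KPC. In Pan02 and KPC the sums differed through the weaker Ltf and Trem1. Ltf stood at 78.5 and 20.3 in Sirpα-/- IR and at 1.0 and 2.52 in WT IR. Trem1 stood at 88.2 and 18.5 in Sirpα-/- IR and at 20.3 and 3.53 in WT IR. Weak genes were higher in general in Sirpα-/- IR, as described above, and the part of that shift in the sums was not tested.

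Counts in the gene lists around the pathway stood beside the panel share of 15.8% called higher, and nothing particular to these lists is read from them. After irradiation, of 8 tested cytokine genes upstream of neutrophil chemokines 2 were higher in Sirpα-/- tumors, Il23a (2.08, limma adjusted p = 0.0048) and Il17f (1.99, adjusted p = 0.0115), both at 11.4 or less in all samples outside Sirpα-/- IR. Il6 (1.27, adjusted p = 0.113) and Tnf (0.67, adjusted p = 0.547) did not pass. Of 9 tested NF-κB and inflammatory feedback genes none passed, with a median log2 difference of 0.16, equal to that of the panel, and the largest differences were for Ptgs2 (1.01, adjusted p = 0.503), Nfkb2 (-0.61, adjusted p = 0.124), Nfkb1 (-0.50, adjusted p = 0.273) and Nfkbia (0.34, adjusted p = 0.604). Of 4 other attractant receptors 1 was higher, Ltb4r2 (2.43, adjusted p = 0.0048), while Ltb4r1 (0.97, adjusted p = 0.491), Ptafr (0.58, adjusted p = 0.399) and Cxcr4 (0.24, adjusted p = 0.837) were not called. Of 4 calprotectin receptor and adaptor genes none was called, with Cd36 at 0.97 (adjusted p = 0.275), Tlr4 at -0.29 (adjusted p = 0.633), Myd88 at -0.16 (adjusted p = 0.834) and Ly96 at 0.01 (adjusted p = 0.996).

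Among genes shared by neutrophils and monocytes, Clec4e (1.07, limma adjusted p = 0.344), Clec5a (-0.61, adjusted p = 0.212) and Cd14 (0.61, adjusted p = 0.311) were not called between the irradiated genotypes. Of 5 endothelial capture genes 1 was higher, the E-selectin gene Sele (1.69, adjusted p = 0.0118), while Icam2 (0.70, adjusted p = 0.307), Vcam1 (-0.67, adjusted p = 0.344) and Pecam1 (-0.58, adjusted p = 0.344) were not called. Il23a, Il17f, Ltb4r2 and Sele had reached the filter only in the Pan02 Sirpα-/- IR sample, so their calls, too, were tied to the group in which they were high. Ppbp, Ltf, Il23a, Il17f, Ltb4r2 and Sele had, like Cxcr1, values of 11.4 or less in every sample outside Sirpα-/- IR.

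Markers of other cell types moved unevenly with the irradiated genotypes. The sum of 5 B cell markers was 109.5 to 308 in Sirpα-/- IR and 18.8 to 25.4 in WT IR, and that of 3 mast cell, basophil and eosinophil markers was 57.0 to 228 in Sirpα-/- IR and 5.26 to 31.1 in WT IR. In the MC38 WT IR sample each of these markers was at 5.27 or less, with 2 of 5 and 2 of 3 at the lowest value. Such weak genes were higher in general in Sirpα-/- IR, as described above, and the part of that shift in these sums was not tested. The 7 T cell markers summed to 194 to 745 in Sirpα-/- IR and 130.5 to 255 in WT IR, leaving out Cd3eap, which encodes a polymerase subunit. The 6 macrophage markers summed to 2119 to 7605 in Sirpα-/- IR and 2738 to 6622 in WT IR, and 3 monocyte markers to 249.8 to 1149.9 and 409.6 to 822 in the same order. The 2 NK cell markers summed to 126 to 461 in Sirpα-/- IR and 175 to 555 in WT IR, and 3 endothelial markers to 286 to 766 and 481 to 1317. No epithelial marker of the list was measured. The part of other cell types in the values of the 6 transcripts was not tested.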

How the data were processed

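Total RNA from 12 pooled tumor samples was measured with the NanoString nCounter Mouse Immunology Panel. The deposited signal holds normalized counts of 100 ng of RNA per sample, from which the authors deducted the background of the negative controls in nSolver and which they multiplied by a factor from the positive controls. Scaling by reference genes is not described in the methods. Both deposited tables held identical values for 561 genes (6732 values), and 1 was used. Net counts were recovered from the steps between values (tolerance 0.1 count), with 100.0% of values on a whole step, or a whole step plus 0.5 count, in every sample. Since the deducted background also fluctuates, net counts understate the counting error.

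Log2(value + 10) was tested with limma 3.58.1 (trend) in R 4.3.3 over the 461 genes reaching 50 normalized counts, in 4 groups of 3 samples with tumor model as a block. Tumor models were compared with the condition as a block. Benjamini-Hochberg adjustment ran over all tested genes at 0.05. The code was tested on simulated data. No pool is described as repeated, and each p-value therefore rests on how the 3 tumor models differ. Alternatives were edgeR 4.0.16 on recovered counts, other scalings, pseudocounts (1 and 50) and filters (none and 100), no block, no trend, the methods' t-test, fits of only the groups compared, and fits without single models, conditions or the shallow samples. Within a model, log2 ratios carry 95% counting intervals, with 3 counts as the floor of a gene at the lowest value. Folds against this floor leave out the counting error of the measured value.

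The 6 genes and all gene lists were chosen with earlier results of these data known. Besides the 6, the text names the 4 tested genes of each list with the largest absolute difference between irradiated genotypes and any that passed, and the 3 genes most like each of the 6 in Pearson's r before and after subtracting model means. The per-sample values of Cxcl15, Ppbp, Csf3r, Camp, Il21, Ltb4r2 and Ccl2 were chosen after they were seen. A gene that these rules name is not reported here. Promoters are RefSeq windows of GRCm38.p6, and all 6 genes were matched. Figures were drawn with matplotlib 3.10.9.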

Additional observations from a re-analysis of the deposited data

How the results depend on the processing

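Of 581 recomputed log2 differences of the 6 genes, 509 kept their direction and their side of the threshold, 56 lost the call, 1 gained it and 15 changed sign, none of these 15 among the called ones. Only a called difference can lose its call: of the 242 alternatives of the 17 called differences, 186 kept it and 56 lost it. Each tumor model gave 1 sample per group, so the fits with tumor model as a block were paired by model, and the fit without the block is the unpaired alternative. Unless the setting itself removes genes or samples, the cause was not tested.

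For Sirpα-/- over WT after irradiation, 2 genes were called, against 1 with median-of-ratios scaling, a pseudocount of 1 or 50, no block or edgeR, and 0 with the methods' t-test, with only the groups compared or with a highest value of at least 100, where Cxcr1 and Cxcr2 were not tested. Leaving out a tumor model gave 0 to 1. For IR over no IR in Sirpα-/- tumors, 6 were called, against 3 with median-of-ratios scaling, 1 without the block, 0 with the methods' t-test and 0 to 3 without a tumor model. For MC38 over the pancreatic models, 5 were called, against 1 with the methods' t-test. For Pan02 over KPC, 4 were called, against 0 with scaling by reference genes, median-of-ratios scaling or the methods' t-test.

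The sign changes were these. Cxcr1 in Pan02 over KPC was -0.0935 with scaling by reference genes and -0.21 with median-of-ratios scaling, and in MC38 over the pancreatic models 0.11 with edgeR. For IR over no IR in WT, Cxcr1 was 0.48 with edgeR, 0.19 without the shallow KPC samples and 0.0555 to 0.149 without a tumor model, and Cxcl1 was -0.0235 with median-of-ratios scaling, -0.0346 with a pseudocount of 1 and -0.28 to 0.53 without a tumor model. For Sirpα-/- over WT without irradiation, Cxcr2 was 0.0247 without the shallow KPC samples and -0.168 to 0.0247 without a tumor model, and Cxcl3 was -0.20 to 0.33. For Pan02 over KPC, Cxcl1 was -0.44 to 0.19 without a condition.

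Depth limited the weak genes: 1 count was worth 6.48 normalized counts in the shallow Sirpα-/- KPC sample.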
